A study of Mus musculus with 24 samples.

Results

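Granule neurons of the dentate gyrus (Exc-DG in the cell type names used here) had 1466 chromatin regions in the hippocampus that were open mainly in them, of 300819 regions measured. The regions are peaks of single-nucleus ATAC-seq (snATAC-seq), an assay in which the Tn5 transposase cuts accessible DNA, so that counts mark open chromatin. A peak was chosen by its own summed counts: it reached 5 CPM (counts per 1000000 counts of the group) in Exc-DG and at least 3 times the CPM of each of 5 other cell groups, which were CA1 excitatory neurons, CA3 excitatory neurons, Inh-MGE inhibitory neurons, Inh-CGE with Inh-Lamp5 inhibitory neurons, and non-neuronal cells. The chosen peaks are called Exc-DG peaks below, and their excess over those 5 groups is what the rule selected on and not a finding. Another 45316 peaks also reached 5 CPM in Exc-DG without the 3-fold excess.

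Adult males aged 10 to 16 weeks gave the ventral hippocampus nuclei and belonged to 2 inbred strains, C57BL/6J (B6) and DBA/2J (D2), neither of which carried a transgene or received a treatment. Each strain had 2 snATAC-seq libraries and 2 single-nucleus RNA-seq (snRNA-seq) libraries, each from about 2 pooled mice, and the file columns number the libraries 2 and 3. Cell type names of ATAC nuclei had been transferred from the snRNA-seq data by the authors, so the labels of both assays share one source. Per library there were 1094 to 2070 Exc-DG nuclei with 18111758 to 27815541 counts in peaks, and for snRNA-seq 1043 to 1489 Exc-DG nuclei with 7895793 to 11352265 counts. The Exc-DG peaks took 1.33% to 1.41% of the counts in each library. The values are sums over nuclei of a type, so fewer open nuclei and less opening per nucleus cannot be told apart.

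Dentate granule neurons are the principal excitatory cells of the dentate gyrus. They receive input from the entorhinal cortex and send mossy fibres to CA3, and they are among the few neurons that mammals go on producing in adult life. Regions open in one cell type are often distal enhancers, stretches of DNA away from gene starts where transcription factors bind. Prox1, a homeodomain factor, is the classical determinant of granule neuron identity, while factors of the NFI, RFX, SOX and basic helix-loop-helix families act in the development or maintenance of many neurons. Basic helix-loop-helix factors such as the NeuroD proteins bind E-boxes, and NFI proteins bind palindromes built from the motif searched here.

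The label was set beside markers in the transcripts, which is no independent check. The authors named the snRNA-seq clusters from marker genes in the same data, and the lists were chosen with earlier results of these data known. Of 18 markers of dentate granule neurons, 16 had their highest snRNA-seq level in Exc-DG among the 6 groups, the exceptions being Tdo2 and Dock10, which were highest in non-neuronal cells. Prox1 stood at 278 CPM in Exc-DG against 85.0 CPM in Inh-CGE with Inh-Lamp5, the next of the 6 groups. Cajal-Retzius cells, which are outside the 6 groups, had 276 CPM of it. The summed level of 4 CA1 markers was 15.3 CPM in Exc-DG (14.2 to 16.5 CPM over its 4 libraries) against 336 CPM in the highest other group. Summed levels of 2 oligodendrocyte precursor markers and 3 vascular markers were 2.30 CPM and 1.63 CPM. The summed level of 3 pan-interneuron markers was 36.1 CPM in Exc-DG, most of it Gad1 at 32.0 CPM. Some other lists were higher in Exc-DG than these. The summed level of 5 CGE and Lamp5 interneuron markers was 1088 CPM against 9808 CPM in the highest other group, and of that 1059 CPM was Adarb2. For 4 CA3 markers it was 697 CPM against 1736 CPM, mostly Grik4 and Cpne4 (390 and 290 CPM), and for 4 oligodendrocyte markers 168 CPM against 3081 CPM, mostly Mbp (121 CPM). For 3 microglia markers it was 310 CPM against 360 CPM, and 1 of them, P2ry12, was highest in Exc-DG at 285 CPM, while Csf1r was at 2.12 CPM. Summed levels of the MGE interneuron, astrocyte and Cajal-Retzius markers were 26.3, 62.5 and 11.8 CPM, against 1745, 1434 and 874 CPM.

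Central 200-base stretches of 9 Exc-DG peaks are printed next, 5′ to 3′ on the plus strand of GRCm38 (mm10), as read from the RefSeq copy of that assembly. They were taken because the results turn on them: the most open peak, another of the 10 most open (on chromosome 13), peaks next to the granule genes Prox1 and Stxbp6, 1 peak with the greatest excess over the other groups, and 3 peaks with a strain difference. Capitals mark letters that match 1 of 4 motifs on either strand, namely the NFI motif TTGGCA, the SOX motif ATTGTT, the RFX motif GTTGCCA and the E-box CAGATG.
Glis3 start-site peak, chr19:28298410-28298609: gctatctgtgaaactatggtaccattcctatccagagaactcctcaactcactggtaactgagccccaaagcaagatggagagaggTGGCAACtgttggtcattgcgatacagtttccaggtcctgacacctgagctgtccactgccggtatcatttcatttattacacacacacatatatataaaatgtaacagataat
peak on the Prox1 side, chr1:190092368-190092567: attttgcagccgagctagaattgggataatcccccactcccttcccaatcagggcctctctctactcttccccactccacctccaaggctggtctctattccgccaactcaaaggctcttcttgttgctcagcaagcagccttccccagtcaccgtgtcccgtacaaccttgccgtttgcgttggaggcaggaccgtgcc
Prox1 intron peak, chr1:190142803-190143002: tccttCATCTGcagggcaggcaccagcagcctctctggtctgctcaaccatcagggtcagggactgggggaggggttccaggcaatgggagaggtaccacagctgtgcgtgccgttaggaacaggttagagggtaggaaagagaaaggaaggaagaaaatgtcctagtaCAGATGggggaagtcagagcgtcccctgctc
peak between genes on chromosome 13, chr13:97651787-97651986: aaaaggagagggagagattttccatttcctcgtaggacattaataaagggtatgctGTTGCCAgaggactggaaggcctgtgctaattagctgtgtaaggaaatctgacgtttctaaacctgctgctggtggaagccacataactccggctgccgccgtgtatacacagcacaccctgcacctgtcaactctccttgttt
Stxbp6 intron peak, chr12:44946854-44947053: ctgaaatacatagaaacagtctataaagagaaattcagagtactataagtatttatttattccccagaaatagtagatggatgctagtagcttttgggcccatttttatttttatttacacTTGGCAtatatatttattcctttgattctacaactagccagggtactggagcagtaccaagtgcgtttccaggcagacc
peak on the Etv1 side, chr12:38947214-38947413: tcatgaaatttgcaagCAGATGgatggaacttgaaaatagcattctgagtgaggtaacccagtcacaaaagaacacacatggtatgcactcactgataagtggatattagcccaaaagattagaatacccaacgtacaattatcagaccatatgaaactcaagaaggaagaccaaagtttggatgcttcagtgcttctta
Pard3 intron peak, chr8:127164468-127164667: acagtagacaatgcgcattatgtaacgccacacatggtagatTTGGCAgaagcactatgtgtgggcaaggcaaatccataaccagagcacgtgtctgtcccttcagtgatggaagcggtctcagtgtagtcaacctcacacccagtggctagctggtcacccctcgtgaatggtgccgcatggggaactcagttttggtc
Lct start-site peak, chr1:128327539-128327738: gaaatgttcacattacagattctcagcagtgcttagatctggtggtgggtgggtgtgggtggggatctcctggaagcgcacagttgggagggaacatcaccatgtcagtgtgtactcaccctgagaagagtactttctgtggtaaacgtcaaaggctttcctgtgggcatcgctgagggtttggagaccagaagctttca
Pdzd2 intron peak, chr15:12630223-12630422: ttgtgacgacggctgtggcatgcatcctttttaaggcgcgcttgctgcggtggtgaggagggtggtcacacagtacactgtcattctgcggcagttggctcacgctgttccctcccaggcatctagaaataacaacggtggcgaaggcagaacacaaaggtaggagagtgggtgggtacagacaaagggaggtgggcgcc

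These stretches differ in what they hold. The Glis3 start-site peak and the peak on chromosome 13 each had 1 RFX match, and the Stxbp6 and Pard3 peaks each had 1 NFI match. The Prox1 intron peak had 2 CAGATG E-boxes. The peaks on the Prox1 side, at the Lct start and in the Pdzd2 intron had no match to these 4 motifs in the central 200 bases.

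Exc-DG peaks were moderately open in absolute terms. Their CPM in Exc-DG ran from 5.003 to 34.2 with a median of 7.93, compared with a median of 9.49 CPM in the other peaks that reached 5 CPM. At least 10 CPM was reached by 474 of them and at least 20 CPM by 42. The ratio to the highest of the 5 other groups had a median of 3.83, exceeded 5 in 265 peaks and 10 in 3 peaks. That highest other group was CA3 for 520 peaks, non-neuronal cells for 475, CA1 for 318, Inh-CGE with Inh-Lamp5 for 120 and Inh-MGE for 33. Inh-MGE had the lowest median of the 5 groups at 0.695 CPM, and non-neuronal cells the highest at 1.63 CPM. The non-neuronal sums held only 6736466 counts against 91548913 in Exc-DG, so their values are the least precise.

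The excitatory types Exc-ENT, Exc-Gpc6 and Exc-Cdh12, which the rule did not use, tell how far the excess carried beyond the 5 groups. Their median CPM over the Exc-DG peaks was 0.797, 0.739 and 0.935. The Exc-DG level was less than 3 times the level in Exc-ENT for 103 peaks, in Exc-Gpc6 for 214 and in Exc-Cdh12 for 245. The 3-fold excess held against all 3 types for 1116 of the 1466 peaks (76.1%). The level was even above that of Exc-DG for 6 peaks in Exc-ENT, 41 in Exc-Gpc6 and 27 in Exc-Cdh12. An example is the fifth most open Exc-DG peak, chr18:44470195-44471305 in an intron of Mcc, with 31.7 CPM in Exc-DG and 34.6 CPM in Exc-Gpc6. Exc-Cdh12 held 7488092 counts, the fewest of these 3 types, and 35 peaks had no count in it.

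Applied to each strain alone, the rule picked 1397 peaks from the B6 sums and 1483 from the D2 sums, and 894 peaks passed in both. All of those 894 were among the 1466. A further 237 of the 1466 passed in B6 but not D2, 279 in D2 but not B6, and 56 in neither strain alone. The peaks nearest to each threshold were close to it on both sides. The 3 peaks just inside 5 CPM all had 5.003 CPM and the 3 just outside 4.981 to 4.992 CPM. The 3 peaks just inside the 3-fold ratio had 3.001 and those just outside 2.992 to 2.998.

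The most open Exc-DG peaks lay at Glis3, which encodes a Krüppel-like zinc finger factor and is a marker of granule neurons. The first, chr19:28297556-28299463, lay 962 bp from the start of an annotated Glis3 transcript. That start is inside the gene and far from the start of the gene itself, at chr19:28680077 on the minus strand. This first peak had 32.4 and 35.8 CPM in the B6 libraries and 36.2 and 33.3 CPM in the D2 libraries. The next group was CA3 at 6.49 CPM. The second, chr19:28502383-28503784, lay in a Glis3 intron with 33.3 and 32.5 CPM in B6 and 36.1 and 32.9 CPM in D2. The libraries of the 2 strains overlapped at both peaks. At the second, Exc-Gpc6 and Exc-Cdh12 were also open, at 22.2 and 25.6 CPM, while at the first they were at 3.50 and 8.01 CPM.

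The third, chr1:190091229-190093705, lay between genes, 77.0 kb from the start of Prox1, the nearest protein-coding gene. It had 29.9 and 32.6 CPM in B6 and 38.1 and 34.0 CPM in D2, and its next group was non-neuronal cells at 10.1 CPM. Inside the Prox1 gene a further peak, chr1:190142690-190143114, had 5.59 and 6.90 CPM in B6 and 7.01 and 7.12 CPM in D2. At both peaks the D2 libraries were above the B6 libraries. In the strain test described below the distal peak passed (edgeR's quasi-likelihood test, log2 fold change 0.25 ± 0.07 SE, adjusted p = 0.014), but not without the B6 library numbered 2 (adjusted p = 0.46 by edgeR) or the D2 library numbered 2 (0.24), nor with DESeq2 (0.40). The intron peak did not pass (0.23 ± 0.14 SE, edgeR adjusted p = 0.42). The antisense transcript Prox1os overlaps the Prox1 locus and lay within 2 kb of 1 Exc-DG peak as well.

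The other peaks among the 10 most open had 28.6 to 33.4 CPM. They lay between genes on chromosome 16 near Mrtfb (62.5 kb) and on chromosome 13, in introns of Mcc, Sgip1 and Plcg2, in a non-coding transcript 85.0 kb from Npnt, and at an exon of Dock10. Npnt encodes nephronectin, an extracellular matrix protein found in granule neurons, and Dock10 a guanine nucleotide exchange factor of dendritic spines. The Dock10 peak, chr1:80581798-80584033, had 26.9, 31.3, 28.4 and 28.8 CPM in the 4 libraries and was low in Exc-Gpc6 and Exc-Cdh12 (1.58 and 1.20 CPM). The chromosome 13 peak, chr13:97650999-97652773, had 26.0 to 31.6 CPM over the 4 libraries. The Mcc peak was lower in D2, with 36.5 and 36.9 CPM in B6 and 26.1 and 27.2 CPM in D2 (edgeR log2 fold change -0.41 ± 0.07 SE, adjusted p = 1.46e-06). It and the peak on the Prox1 side were the 2 of the 10 most open peaks that differed between the strains, and none of the 10 peaks with the greatest ratio, described next, did.

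The greatest excess over the 5 other groups was found at weaker peaks. The peak chr12:38946854-38947772, between genes 167 kb from Etv1, had 6.24 CPM in Exc-DG and 0.487 CPM in CA3, a ratio of 12.8. Its libraries gave 7.04 and 6.20 CPM in B6 and 5.69 and 5.93 CPM in D2. Of its bases, 87.7% are masked as repeats in the reference, and how reads with several matches were placed there was not tested. The second, chr3:26401952-26402660, had 5.24 CPM in Exc-DG and no count in non-neuronal cells, and a ratio of 11.8 with 3 counts set as the floor for that group. Of the 10 peaks with the greatest ratio, 8 lay between genes and 2 in introns, and their ratios ran from 9.39 to 12.8. A look at repeats taken after these values were seen found 4 of the 10 with over 50% of their bases masked, at 52.5%, 73.9%, 78.7% and 87.7%, compared with 54 of all 1466 Exc-DG peaks (3.68%).

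One of the 10 lay in an intron of Stxbp6, which encodes amisyn, a regulator of vesicle fusion. This peak, chr12:44946700-44947206, had 5.67 and 6.62 CPM in B6 and 6.07 and 5.21 CPM in D2, and 0.613 CPM in Inh-MGE, the next group. A second Stxbp6 peak, chr12:44947651-44948180, lay less than 1 kb away with 7.08 CPM in Exc-DG and a ratio of 9.12. Only 6 of the 1466 peaks had another Exc-DG peak within 1 kb, 62 within 10 kb and 383 (26.1%) within 100 kb.

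Exc-DG peaks lay away from gene starts. Within 1 kb of an annotated transcript start were 92 (6.28%), compared with 36.0% of the other peaks at 5 CPM or more in Exc-DG and 12.4% of all peaks. Exons held 117 (7.98%), introns 556 (37.9%), and 701 (47.8%) lay between genes, where 25.8% of the other peaks at 5 CPM and 35.5% of all peaks lay. The median distance to the nearest transcript start was 16.9 kb, against 4.89 kb and 13.0 kb, and to the start of the nearest protein-coding gene 71.4 kb, against 23.5 kb and 55.6 kb. The peaks were spread over every chromosome but Y, from 0.304% of the peaks on X to 0.604% of those on chromosome 19. No test was run on these shares, which describe a chosen set.

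**Figure D1:**
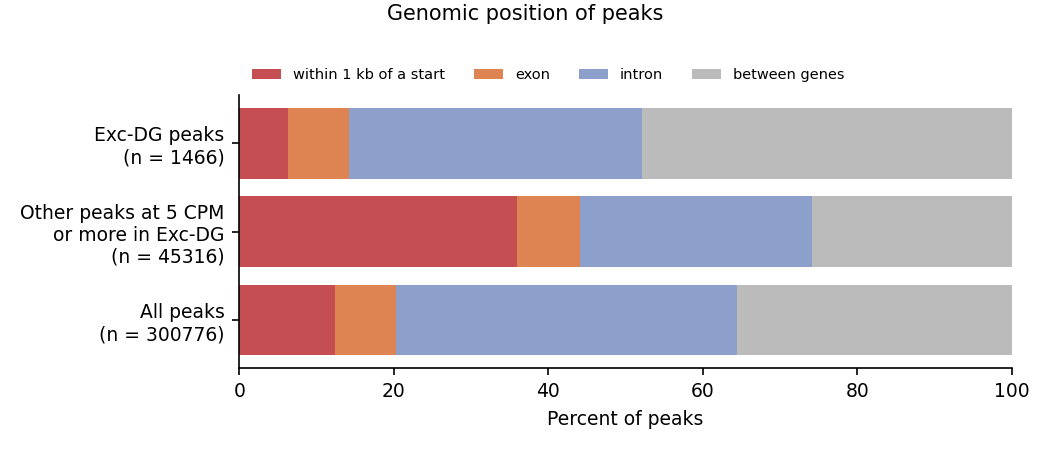
Share of peaks within 1 kb of a transcript start, in an exon, in an intron and between genes, as percent of peaks (GENCODE annotation of GRCm38). The start-site share was 6.28% for the Exc-DG peaks, 36.0% for the other peaks at 5 CPM or more in Exc-DG and 12.4% for all peaks.

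Their sequence was poor in CpG. The median density was 8.49 CpG per kb in the Exc-DG peaks, 16.9 per kb in the other peaks at 5 CPM and 10.5 per kb in all peaks. Densities above 40 CpG per kb, which mark CpG islands and many promoters, were found in 0.0682% of the Exc-DG peaks, which is 1 peak, and in 23.3% and 4.83% of the 2 comparison sets. The median G+C content was 44.4%, against 49.9% and 46.4%. Exc-DG peaks had a median width of 763.5 bp, the other peaks at 5 CPM one of 1195 bp and all peaks one of 534 bp. Motif shares over whole peaks are therefore given only as an alternative setting. Bases masked as repeats made up a mean of 17.4% of an Exc-DG peak, 12.6% of another peak at 5 CPM and 15.9% of any peak.

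Motif matches were counted on both strands in the central 200 bases of each peak. The RFX motif GTTGCCA was found in 86 Exc-DG peaks (5.87%), 3.37% of the other peaks at 5 CPM and 3.15% of all peaks. The SOX motif ATTGTT was found in 234 (16.0%), against 7.91% and 10.3%. The NFI motif TTGGCA was found in 319 (21.8%), against 13.3% and 14.9%. These 3 had the highest ratio of the Exc-DG share to that of all peaks among 17 patterns searched, at 1.86, 1.54 and 1.46, but the place of NFI depended on the comparison. Against the other peaks at 5 CPM the ratio was 1.67 for the TCF/LEF motif and 1.64 for NFI, and in the central 100 bases the ratio to all peaks was 1.63 for MEF2 and 1.41 for NFI. RFX and NFI patterns share letters (GTTGCCA read on the other strand begins with TGGCA), so 1 stretch can hold both. At least 1 of the 3 was present in 545 Exc-DG peaks (37.2%), against 21.9% and 25.4%, and at least 2 in 86 (5.87%), against 2.52% and 2.85%.

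The shares were also compared within bands of G+C content of the central 200 bases, since the peak sets differ in it. Under 40% G+C, in 382 Exc-DG peaks, the shares were 4.19% for RFX, 24.1% for SOX and 23.0% for NFI, against 2.65%, 18.6% and 16.5% of all peaks. From 40% to under 50%, in 761 peaks, they were 6.18%, 16.0% and 22.3%, against 3.31%, 11.1% and 15.9%. At 50% and over, in 323 peaks, they were 7.12%, 6.19% and 18.9%, against 3.20%, 4.50% and 12.7%. The Exc-DG share was the higher one in each band.

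In the central 200 bases the other patterns were closer to their share of all peaks, or rarer. The E-box CAGATG, a NeuroD-type site, was found in 23.3% of the Exc-DG peaks, 18.3% of the other peaks at 5 CPM and 23.1% of all peaks, and any E-box (CANNTG) in 72.7%, 64.4% and 72.5%. Their ratios were thus 1.27 and 1.13 against the other peaks at 5 CPM, and 1.01 and 1.00 against all peaks. The E-box CAGCTG was found in 10.3% against 14.3% of all peaks, and CACGTG in 1.91% against 2.99%. The AP-1 motif TGANTCA, bound by the Fos and Jun proteins that neuronal activity induces, was found in 5.93% against 10.1% of all peaks, although the other peaks at 5 CPM had 6.27%. The ETS motif CCGGAAG, common in promoters, was found in 4 Exc-DG peaks (0.273%), against 3.06% of the other peaks at 5 CPM and 1.20% of all peaks. The EGR motif GCGTGGGCG was found in 0 and the CRE motif TGACGTCA in 1. MEF2 (CTATTTATA or CTAAAAATA), TCF/LEF (CTTTGAT), homeobox (TAATTA), NR4A (AAAGGTCA), T-box (AGGTGTGA) and CATATG had ratios to all peaks between 0.644 and 1.32.

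**Figure D2:**
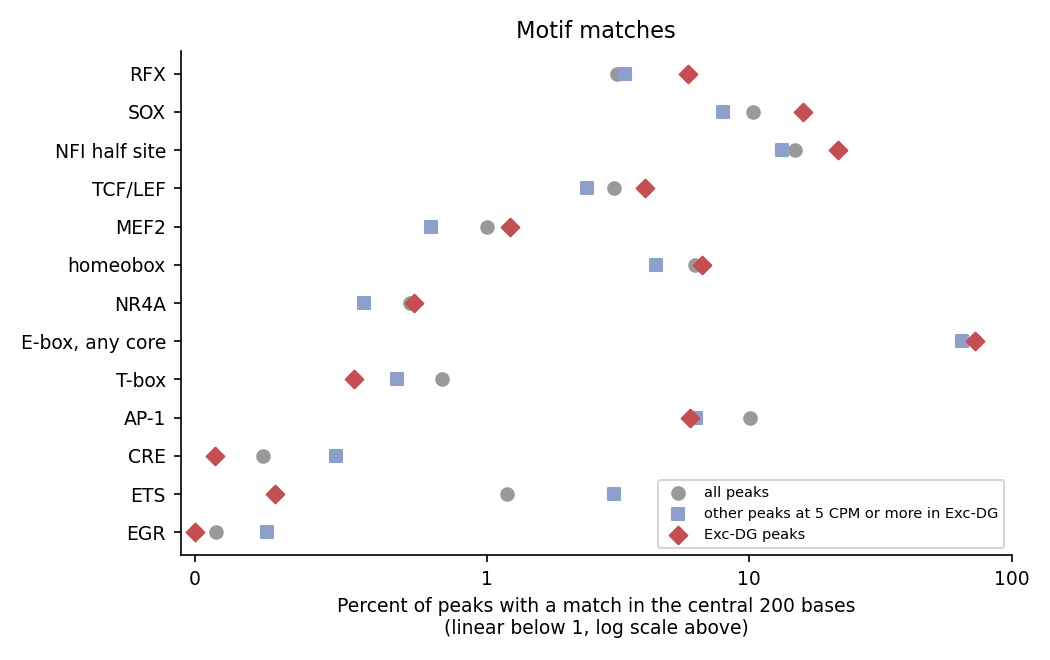
Percent of peaks with a motif match in their central 200 bases (x axis, linear below 1 and log above), for the Exc-DG peaks, the other peaks at 5 CPM or more in Exc-DG and all peaks, ordered by the ratio of the first to the third. RFX, SOX and NFI stand at the top with 5.87%, 16.0% and 21.8% of the Exc-DG peaks, and ETS and EGR at the bottom with 0.273% and 0%.

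Of the 1466 peaks, 806 lay in or within 2 kb of an annotated gene, and 805 genes had at least 1 such peak, among them 586 protein-coding genes. Most of these genes, 719, had a single Exc-DG peak, 67 had 2 and 19 had 3 or more. The 18 granule neuron markers used above were also taken as a gene list. They were chosen with earlier results of these data known, so their share of peaks is no independent support. The list held 24 Exc-DG peaks in 9 of the genes, which was 3.90% of the 616 peaks in or near the list. These were Glis3 (5), Stxbp6 (4), Sema5a (4), Maml2 (3), Dock10, Lct and Pdzd2 (2 each), and Prox1 and Tdo2 (1 each). None was found at C1ql2, C1ql3, Dsp, Calb1, Plk5, Npnt, Trpc6, Synpr or Rfx3, although the transcripts of Dsp, Plk5 and Npnt were 40.5, 16.1 and 9.91 times as high in Exc-DG as in the next group. A list of 6 CA1 genes had 0 of 107 peaks and a list of 6 CA3 genes 1 of 224 (0.446%), at Grik4. Exc-DG peaks were 1466 of all 300776 peaks on chromosomes, or 0.304% to 0.604% by chromosome other than Y. The CA3 share thus lay within the range of the background, and 107 peaks are too few to tell 0 from such a share.

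Of 20 transcription factor genes, 4 had an Exc-DG peak, namely Glis3, Prox1, Zbtb20 and Mef2c. The 20 genes together held 8 Exc-DG peaks among 747 peaks (1.07%). Zbtb20, a zinc finger repressor needed for hippocampal neuron identity, had 1 of its 159 peaks in the set, and Mef2c, an activity-dependent regulator of synapses, 1 of 42. The factor genes without an Exc-DG peak included Neurod1, Neurod2, Neurod6, Nfia, Nfib, Nfix, Emx1, Emx2, Lef1, Tcf4, Bcl11b, Mef2a, Klf7, Sox11 and Rfx3. Of these factors, Rfx3 had a transcript level of 1444.5 CPM in Exc-DG against 285 CPM in non-neuronal cells, the next group.

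Genes with many Exc-DG peaks were mostly long genes of axon guidance, adhesion and synapse function. Cdh13, a cadherin without a transmembrane domain, had 6 Exc-DG peaks among its 191 peaks. Glis3 had 5 of 80. Tiam1, an activator of Rac in spines, Sema5a, a transmembrane semaphorin, Stxbp6 and Nkain2, a sodium pump interacting protein, had 4 each, out of 79, 88, 47 and 178 peaks. Genes with 3 included Lrrtm4, a synaptic organizer of granule neuron inputs, Ntng1, Pcsk5, Kif26b, Maml2, Zfhx3, Rbfox1 and Mylk3, the last with 3 of only 11 peaks. The transcripts Gm37240 and Gm20388 overlap other genes, so their counts share peaks with those genes.

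Transcripts of these genes were often, though not always, highest in Exc-DG. Glis3 had 670 CPM in Exc-DG, 201 CPM in non-neuronal cells and 4.23 to 11.1 CPM in the other neuron groups. Sema5a had 433 CPM against 146 CPM in Inh-CGE with Inh-Lamp5, the next group, Kif26b 248 CPM against 84.1 CPM in Inh-MGE, and Stxbp6 566 CPM against 217 CPM in Inh-MGE. Outside the 6 groups, Cajal-Retzius cells had 64.8 CPM of Glis3, 414 CPM of Sema5a, 138 CPM of Kif26b and 96.5 CPM of Stxbp6. Ntng1, in contrast, had 393 CPM in Exc-DG and 926 CPM in CA1, Zfhx3 had 35.1 CPM and 206 CPM in non-neuronal cells, and Rbfox1 had 3501 CPM and 5590.5 CPM in CA1.

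**Figure D3:**
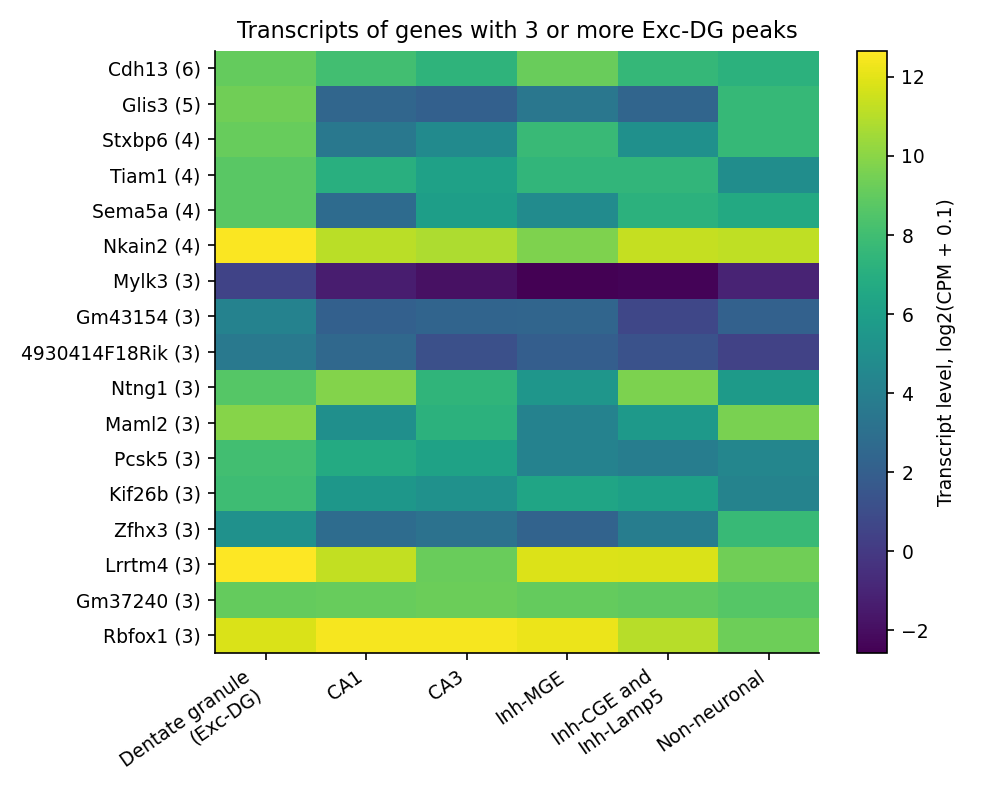
Transcript level, as log2(CPM + 0.1) of counts summed over 4 snRNA-seq libraries, of genes with 3 or more Exc-DG peaks and an entry in the transcript table, in 6 cell groups. The number of Exc-DG peaks is in parentheses, Glis3, Stxbp6 and Sema5a are highest in Exc-DG, and Ntng1 and Zfhx3 are highest in CA1 and non-neuronal cells.

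Over all genes with an Exc-DG peak, 735 had an entry in the transcript table and 474 reached 5 CPM in Exc-DG. Exc-DG was the highest of the 6 groups for 182 of these 474 (38.4%), against 2121 of 11729 genes (18.1%) when all annotated genes at 5 CPM were taken. With 2 or more Exc-DG peaks it was 40 of 70 (57.1%). A transcript level at least 3 times that of each other group was reached by 24 of the 474 (5.06%) and by 0.912% of all. The median ratio to the highest other group was 0.902 against 0.740, so that most genes with an Exc-DG peak were not highest in Exc-DG. Transcripts per gene were also more abundant in the first set, with a median of 72.1 CPM against 25.8 CPM. The genes with the largest transcript ratios included Vwa3b (36.6 CPM against 3.05 CPM in CA3), Lct (11.3 times), Ntn5, a netrin (8.86 times), Fam163b (6.65 times), Il1r1, the interleukin-1 receptor (6.04 times), and Ntf3, the neurotrophin NT-3 (6.03 times). These ratios are to the 5 groups of the rule. Among the cell types outside them, Ntf3 had 73.3 CPM in Exc-Cdh12, the same as its 73.3 CPM in Exc-DG. Ntn5 had 20.8 CPM in Exc-Gpc6 against 28.1 CPM in Exc-DG, and Fam163b 19.1 CPM in Exc-ENT against 54.5 CPM. Vwa3b, Lct and Il1r1 had at most 3.95 CPM in those types. Ntn5 and Sec1 overlap on opposite strands, and the same Exc-DG peak is counted for both. Sec1 was also higher in Exc-DG (6.18 times), with 60.2 CPM, but had 45.0 CPM in Exc-Gpc6.

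The 2 strains were then compared in Exc-DG with edgeR's quasi-likelihood test over all peaks, taking adjusted p below 0.05 as a difference. All 1466 Exc-DG peaks were tested, and 229 (15.6%) differed, 130 higher in D2 and 99 lower in D2. Over all 297387 peaks tested 5.97% differed, 3.39% higher in D2 and 2.58% lower, and over the other peaks at 5 CPM or more, which have similar counts, 11.4% differed. Of those 11.4%, 8.22 percentage points were higher in D2 and 3.16 lower, against 8.87 and 6.75 for the Exc-DG peaks. The share lower in D2 was above that of both comparison sets, and the share higher in D2 was close to that of the other peaks at 5 CPM. Differences were mostly small, with a median absolute log2 fold change of 0.50 among the 229, and 113 of them below 0.5. A 2-fold difference was reached by 35, of which 8 were higher and 27 lower in D2. No such count over all peaks is given here, so it has no background to be read against. At the unadjusted p below 0.05 in the edgeR test, 460 of the 1466 passed. So did 12070 of the 45316 other peaks at 5 CPM and 47535 of all 297387 peaks tested.

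The balance of directions depended on the tool and on 1 library. DESeq2 on the same 4 libraries called 79 Exc-DG peaks, 26 higher and 53 lower in D2, and its count over all peaks is not given here. With edgeR and without the B6 library numbered 2, which has 2070 nuclei, 46 Exc-DG peaks were higher and 80 lower in D2, while without each of the other 3 libraries 88 to 106 were higher and 68 to 86 lower. The 2 libraries of a strain come from separate pools of mice. The p-values set the strain difference against the spread between pools, which the tests estimate partly from all peaks together.

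**Figure D4:**
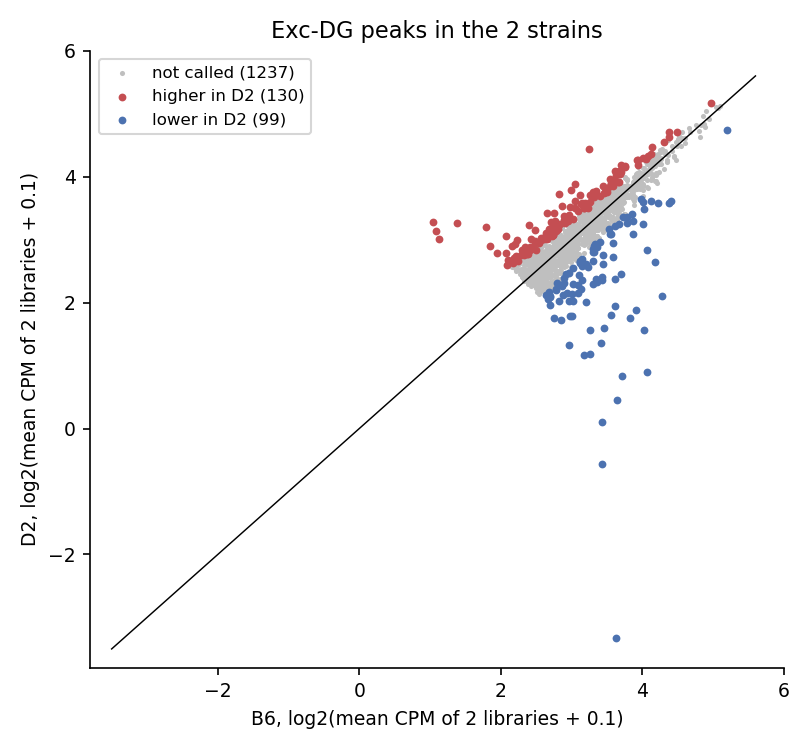
Each point is an Exc-DG peak, with its mean CPM over 2 libraries in B6 (x axis) and D2 (y axis) on the log2(CPM + 0.1) scale. Peaks with an adjusted p below 0.05 are coloured, 130 higher and 99 lower in D2, the line marks equality, and the point at the bottom is the Pard3 intron peak, which had no count in D2.

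The largest difference was at the Pard3 intron peak chr8:127164092-127165042. Pard3 encodes a scaffold of cell polarity. The peak had 11.9 and 12.6 CPM (288 and 270 counts) in the B6 libraries and no count in either D2 library, at least 187-fold lower with 3 counts over both D2 libraries as the floor (edgeR adjusted p = 2.33e-79). The other cell types had 265 counts there in B6 and 0 in D2. Whether D2 mice have this stretch of DNA was not tested. Pard3 transcripts in Exc-DG were 219 and 201 CPM in B6 and 167 and 162 CPM in D2 (edgeR log2 fold change -0.37 ± 0.08 SE, adjusted p = 0.0012), so the transcript was reduced by far less than the peak.

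A further 4 Exc-DG peaks were lower in D2 by over 3 on the log2 scale. The peak chr7:64102928-64103770, 50.1 kb from Trpm1, had 9.98 and 11.4 CPM in B6 and 0.442 and 0.719 CPM in D2 (edgeR log2 fold change -4.07 ± 0.21 SE, adjusted p = 9.57e-57). A peak within 1 kb of a start of the transcript Gm8307, chr1:45768514-45769674, had 9.98 and 11.4 CPM against 0.939 and 1.01 CPM. Its log2 fold change was -3.39 ± 0.19 SE. Of the last pair, chr8:24302907-24303503 lay between genes with 12.2 and 12.5 CPM against 1.10 and 1.44 CPM, and chr11:24724154-24724837 in introns of the non-coding transcripts Gm10466 and Gm12068 with 15.4 and 18.0 CPM against 1.77 and 1.76 CPM. Both had a log2 fold change of -3.19. Gm10466 transcripts went the other way, at 1.53 and 2.03 CPM in B6 and 9.66 and 9.37 CPM in D2 (edgeR log2 fold change 2.38 ± 0.24 SE, adjusted p = 1.72e-06).

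The peaks most increased in D2 had smaller changes. The Immt intron peak chr6:71873513-71874024 had 1.95 and 1.96 CPM in B6 and 10.1 and 9.02 CPM in D2 (edgeR log2 fold change 2.33 ± 0.17 SE, adjusted p = 9.88e-34). Immt encodes mitofilin, which shapes mitochondrial cristae, and its transcript did not pass the test (-0.12 ± 0.09 SE, edgeR adjusted p = 0.37). The Immp2l intron peak chr12:41255829-41256535 rose from 1.90 and 2.14 CPM to 8.83 and 8.52 CPM, and the other cell types showed 0.930 CPM in B6 and 0.950 CPM in D2 there. The peak chr3:82400406-82400815 near Map9, a microtubule-associated protein gene, rose by 1.98 on the log2 scale, and chr4:20970386-20971238 by 1.49.

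At Prune2 peak and transcript rose together. The peak chr19:17216162-17216733 at a Prune2 exon had 2.40 and 2.61 CPM in B6 and 9.88 and 9.24 CPM in D2 (edgeR log2 fold change 1.97 ± 0.16 SE, adjusted p = 4.70e-28). The transcript had 43.4 and 48.4 CPM in B6 and 88.6 and 93.2 CPM in D2 (edgeR log2 fold change 0.96 ± 0.09 SE, adjusted p = 5.28e-07). Prune2 had 1 further Exc-DG peak.

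Among the 24 Exc-DG peaks at the granule neuron genes, 2 differed between strains, where 15.6% of all Exc-DG peaks and 5.97% of all peaks tested did. Lct encodes lactase, whose transcript marks granule neurons in mice. The Lct start-site peak chr1:128327218-128328058, 260 bp from the start of the gene, had 9.23 and 9.69 CPM in B6 and 2.10 and 2.23 CPM in D2 (edgeR log2 fold change -2.07 ± 0.16 SE, adjusted p = 8.88e-29). Its level in the other cell types together was 2.51 CPM in B6 and 0.678 CPM in D2. The Lct transcript was 17.5 and 17.1 CPM in B6 and 8.99 and 9.63 CPM in D2 (edgeR log2 fold change -0.92 ± 0.15 SE, adjusted p = 1.58e-04). The second Lct peak, chr1:128318572-128319660 at an exon, had 7.41 and 8.53 CPM in B6 and 6.40 in each D2 library, and did not pass (-0.27 ± 0.13 SE, edgeR adjusted p = 0.30).

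The other peak was in an intron of Pdzd2, which encodes a PDZ domain protein. This peak, chr15:12629944-12630700, had 9.81 and 8.99 CPM in B6 and 21.7 and 21.5 CPM in D2 (edgeR log2 fold change 1.24 ± 0.10 SE, adjusted p = 1.29e-29). The other Pdzd2 peak, chr15:12727853-12728807, was the more open at 29.0 and 27.2 CPM in B6 and 24.5 and 24.6 CPM in D2, and did not pass (-0.15 ± 0.08 SE, edgeR adjusted p = 0.32). The Pdzd2 transcript was 339 and 311 CPM in B6 and 404 and 356 CPM in D2 and missed the threshold (0.20 ± 0.08 SE, edgeR adjusted p = 0.067).

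Strain differences at Exc-DG peaks were mostly shared in direction with the other cell types, but less often than over all peaks that differed. The sum over all other deposited types moved the same way for 174 of the 229 (76.0%), for 92 of the 99 lower in D2 (92.9%), for 82 of the 130 higher in D2 (63.1%), and for all 35 with a 2-fold difference. Over all 17758 peaks that differed the figure was 87.9%. These sums were not tested, and with a median of 423 counts for the 229 peaks many are small. By position, 22 of 92 peaks near a start site differed (23.9%), 18 of 117 at exons (15.4%), 76 of 556 in introns (13.7%) and 113 of 701 between genes (16.1%). No such split of all peaks is given here, so these shares have no background to be read against.

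Transcripts of the genes with Exc-DG peaks were compared between the strains in the same way. Of 592 such genes tested, 222 (37.5%) differed, 78 higher and 144 lower in D2, where 36.0% of all 17723 transcripts tested differed, so the share as a whole was near the background. The directions were not balanced alike. Among genes at 5 CPM or more with counts in both strains, 132 of 474 with an Exc-DG peak (27.8%) were lower in D2 and 53 (11.2%) higher, against 16.5% lower and 13.9% higher in all 11592 transcripts of that kind. With 2 or more Exc-DG peaks and no filter on level, 32 of 78 tested genes were lower (41.0%) and 6 higher. Of all 17723 transcripts tested, 13.8% were lower and 22.2% higher. That background is not matched in abundance. At 5 CPM or more, genes with 2 or more Exc-DG peaks had a median of 215 CPM in Exc-DG, against 25.8 CPM for all genes. The genes with Exc-DG peaks were more abundant than the background, as given above, and the summed level of the 18 granule neuron markers was lower in the D2 libraries (7070 and 7116 CPM) than in the B6 libraries (7974 and 8260 CPM). The sums of some other marker lists were lower in the same D2 libraries by a greater share. The CGE and Lamp5 markers summed to 1213 and 1269 CPM in B6 and 890 and 887 CPM in D2. Most of that was Adarb2, at 1184 and 1242 CPM against 862 and 858 CPM. The oligodendrocyte markers summed to 193 and 196 CPM against 138 and 129 CPM. For the microglia markers it was 337 and 324 CPM against 281 and 288 CPM, mostly P2ry12. That gene, highest in Exc-DG itself, had 312 and 299 CPM against 257 and 260 CPM. The vascular markers went the other way, at 0.765 and 0.705 CPM in B6 and 3.44 and 2.03 CPM in D2. The strains overlapped for the CA3 and astrocyte markers. The part of these levels in the result was not tested.

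Peak and transcript differences went in the same direction more often than in opposite ones. Of 47 tested genes whose differing Exc-DG peaks were lower in D2, 21 had a transcript lower in D2 (44.7%) and 4 a higher one. Of 68 genes with peaks higher in D2, 20 had a higher transcript (29.4%) and 8 a lower one. Of 476 genes with no differing Exc-DG peak, 24.2% had a lower and 11.3% a higher transcript. These counts describe one set of libraries and were not tested.

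Among genes with 3 or more Exc-DG peaks, most transcripts that passed the test were lower in D2 and 1, Ntng1, was higher. Maml2, a coactivator of Notch signalling, had 1247 and 1076 CPM in B6 and 688 and 661 CPM in D2 (edgeR log2 fold change -0.81 ± 0.08 SE, adjusted p = 9.83e-07). Pcsk5, a proprotein convertase, fell from 294 and 304 CPM to 229 and 205 CPM (-0.48 ± 0.08 SE, edgeR adjusted p = 1.31e-04). The strains did not overlap for either gene. Glis3 was lower by a smaller amount, 760 and 689 CPM against 616 and 586 CPM (-0.29 ± 0.07 SE, edgeR adjusted p = 0.0047). Not one of the Exc-DG peaks of Maml2 or Glis3 passed the strain test, their log2 fold changes lying between -0.30 and 0.11. The calls for Gm43154, Gm37240, Lrrtm4 and Ntng1 were lost when at least 1 library was left out, Lrrtm4 only without the B6 library numbered 2 (edgeR adjusted p = 0.18), and Kif26b, which was also lower, had a log2 fold change of -0.35. Cdh13, Nkain2, Stxbp6, Tiam1, Sema5a, Zfhx3, Rbfox1, Mylk3 and 4930414F18Rik did not pass. The Prox1 transcript was 296 and 319 CPM in B6 and 237 and 243 CPM in D2 (edgeR log2 fold change -0.38 ± 0.07 SE, adjusted p = 4.01e-04), while its intron peak did not differ by the test.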

How the data were processed

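Counts per peak and per transcript, summed over the nuclei of each cell type and library, were used as deposited. Per the labels and the study's methods, the authors mapped reads with Cell Ranger ATAC 2.0.0 and Cell Ranger 6.0.2 to mm10 (B6) or to mm10 carrying D2 SNPs (D2), called peaks per sample with MACS, merged them, kept peaks seen in at least 10 cells, removed likely doublets with DoubletFinder in both assays and named ATAC nuclei by transfer from snRNA-seq in Seurat 4.0.5. Such mapping does not model insertions or deletions. The file columns number the libraries 2 and 3 and the labels number the replicates 1 and 2, so columns were tied to strains and not to single samples. For cell types other than Exc-DG the counts were used only as sums over libraries, with no error.

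The rule was applied to peaks on chromosomes (43 of 300819 lie on scaffolds). CPM is the count divided by the total of the group or library and multiplied by 1000000. The members and lists were chosen with earlier results of these data known. Genes were named by fixed rules: the 10 highest CPM values and 10 highest ratios (a group at 0 set to 3 counts), the 5 largest strain differences in each direction among members with adjusted p below 0.05, a mean of 5 CPM and no overlap of libraries, genes with 3 or more members, and the lists. Positions came from GENCODE vM21 and sequence from RefSeq GRCm38.p6, both of the files' build. Peak ends were read as 1-based, and a peak's centre is not a summit. Strains were compared with edgeR 4.0.16 (quasi-likelihood test, TMM, Benjamini-Hochberg over all features tested). The test was checked on simulated data: of 200 features changed by 1 on the log2 scale it recovered 99.5% over 297387 peaks and 96.5% over 17723 transcripts. Of the calls, 5.24% and 2.03% were false. The 200 were drawn from features with a mean of at least 5 CPM, and all features were given the same dispersion. Smaller changes were not simulated. Alternatives were DESeq2, other normalization and filters, a replicate block, each library left out, and other thresholds. Methylation data of the series (16 samples) were not analysed here, and values of some genes that met these rules are not reported here.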

Additional observations from a re-analysis of the deposited data

How the results depend on the processing

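The number of Exc-DG peaks depended on the thresholds: 3740 with a 2-fold excess, 627 with a 4-fold excess, 2422 at 3 CPM, 474 at 10 CPM, and 212 when each deposited cell type on its own replaced the 5 groups. TMM scaling of the groups gave 1372, of which 1211 were among the 1466, and leaving out 1 library gave 1368 to 1533. The share near a transcript start was 4.71% within 500 bp, 11.5% within 2 kb and 1.36% for starts of protein-coding genes. The RFX, SOX and NFI shares stayed above those of all peaks over whole peaks and in the central 100 bases, where MEF2 had a ratio to all peaks (1.60 and 1.63) above that of NFI (1.52 and 1.41). Exc-DG peaks are wider than all peaks (median 763.5 against 534 bp), so the whole-peak comparison with all peaks is uneven in their favour. Against the other peaks at 5 CPM, which are wider, the whole-peak ratios of RFX, SOX and NFI were only 1.06, 1.22 and 1.04.

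DESeq2 called 79 Exc-DG peaks between strains, 26 higher and 53 lower in D2, so both its count and its balance differ from edgeR's. Leaving out 1 library gave 126 to 174 called peaks, 46 to 106 higher and 68 to 86 lower, and without the B6 library numbered 2 the balance turned to 46 higher and 80 lower. For transcripts of genes with Exc-DG peaks, DESeq2 called 47 higher in D2, and leaving out 1 library gave 165 to 218 in all, 61 to 76 higher and 97 to 142 lower. The cause was not tested. Of 416 values for named peaks under these alternatives, 412 stayed on their side of the threshold and 1 gained a call, and the 3 that lost it all belong to the peak on the Prox1 side. Those named for a strain difference kept direction and call throughout. Of 256 such values for named genes, 18 lost and 17 gained a call, and the remaining 221 kept theirs.

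With the library number as a replicate block, 229 Exc-DG peaks differed, 127 higher and 102 lower in D2, and 226 transcripts. Deviations of same-numbered libraries correlated at 0.0430 over the Exc-DG peaks with only 2 pairs, so the numbers were not taken as pairing. With 2 libraries per strain, small differences may be missed.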

Other observations

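Words of 8 letters in the central 200 bases were ranked after the data had been seen, by the share of Exc-DG peaks over that of all peaks, among 2313 words found in at least 22 Exc-DG peaks. The highest, ATCTAATA, was found in 25 Exc-DG peaks (1.71%) and 0.392% of all peaks. The second, AGTTGGCA, which holds the NFI motif, was found in 43 (2.93%) and 1.04%. No test was run on words chosen in this way.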
